A study of Mus musculus with 4 samples.

Results

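The genes described here carry the names of full-length cDNA clones from the RIKEN mouse collection, in the 6 clone series whose first 4 digits are those of 4921524L21Rik, 4922502D21Rik, 4930447C04Rik, 4931406P16Rik, 4932438A13Rik and 4933402E13Rik. They were chosen by their symbol and by their level: the mean estimated count over the 4 libraries had to be at least 100. Of 55335 rows of the deposited gene table, 888 had such a symbol and 173 of these reached the minimum. The 715 rows left out included 295 with 0 in all 4 libraries. The smallest mean count of a gene kept was 100.25 and the largest mean count of a row left out was 99.25. Just inside the limit were 4931406B18Rik, 4933417D19Rik and 4930429H19Rik. Just outside it, 4933417C20Rik had counts of 116 and 85 in the CTRL libraries and 105 and 91 in the Znhit1_KO libraries. The next rows down, 4933425M03Rik and 4933415A04Rik, had mean counts of 96.75 and 96.25.

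The samples were poly(A) RNA of mouse testis of postnatal day 14. There were 2 Znhit1_KO libraries and 2 CTRL libraries, each pair described in the labels as independent biological replicates. Testis and testis cells are the labelled source, while the design text speaks of germ cells. The strain, the Cre line or other means of deletion, the genotype of the CTRL animals beyond that label and the number of animals per library were not among the labels. Znhit1 codes for a protein of the SRCAP complex, the remodeller that loads H2A.Z, a variant histone, into chromatin, and the title of the series names pachytene gene expression.

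RIKEN clone names were given to transcripts by the library and plate they came from, before their function was known, and these series hold many clones from testis libraries. Genes that still carry such names are mostly long non-coding RNAs (lncRNAs) or open reading frames without a named product. The testis transcribes an unusually wide range of such genes, many of them from the pachytene stage of meiosis, in which homologous chromosomes are paired, into the round spermatid stage.

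Among the 173 genes, 88 were annotated as lncRNA, 61 as protein-coding, 15 as TEC (transcripts awaiting experimental confirmation) and 9 as pseudogenes. The series of 4930447C04Rik gave 97 of them, that of 4933402E13Rik 42, that of 4921524L21Rik 13, that of 4931406P16Rik 11, that of 4932438A13Rik 9 and that of 4922502D21Rik 1. Median log2 changes of Znhit1_KO against CTRL by series, in the same order, were -0.69, -0.54, -1.02, -0.26, -0.33 and -2.59. A RefSeq entry was found for 145, and 10 of these now have another symbol. Genes with a product of known role included 4930447C04Rik (synonym Six6os1), a component of the central element of the synaptonemal complex, and 4930432K21Rik (Brme1), a meiotic recombination factor that acts with the BRCA2 complex. They also included 4933427D14Rik (Kiaa0753, moonraker), a centriolar satellite protein, and 4932438A13Rik (Kiaa1109), a very large lipid transfer protein. Levels ran over a wide range. The mean TPM (the authors' length-normalised level) was lowest at 0.327 for 4932415D10Rik, had a median of 4.94 over the 173 genes and was highest at 174 for 4933402E13Rik.

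The upstream stretches below lie before the start of genes that the authors' deposited table marks lower in Znhit1_KO. One of them is the whole interval between a pair of the genes that start back to back. They are not those of the widest difference: in 4930444F02Rik the CTRL libraries differed from each other by more than the groups' nearest libraries did. All are RefSeq sequence of the GRCm38.p6 build, 5′ to 3′ on the strand of the gene, and each of the first 4 gives the 250 bases before the RefSeq start. Capitals mark a match to GTTGCNA, one arm of the X-box bound by RFX factors. That motif, the MYB core CCGTTA and the full cAMP response element TGACGTCA were searched on both strands in a window of 300 bases, 250 before and 50 after the start.
4933415F23Rik, chr1:23102254-23102503, minus strand: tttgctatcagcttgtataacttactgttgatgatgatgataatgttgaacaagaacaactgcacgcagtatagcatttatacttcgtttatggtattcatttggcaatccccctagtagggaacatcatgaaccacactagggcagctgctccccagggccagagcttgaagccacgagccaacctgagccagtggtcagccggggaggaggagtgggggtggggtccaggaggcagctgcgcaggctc
4922502D21Rik, chr6:129331782-129332031, minus strand: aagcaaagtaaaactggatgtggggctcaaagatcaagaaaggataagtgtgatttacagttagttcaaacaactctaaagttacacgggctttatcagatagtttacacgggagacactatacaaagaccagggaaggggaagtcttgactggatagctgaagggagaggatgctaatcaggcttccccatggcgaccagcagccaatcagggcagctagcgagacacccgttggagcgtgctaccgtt
4933406F09Rik, chr14:7412223-7412472, plus strand: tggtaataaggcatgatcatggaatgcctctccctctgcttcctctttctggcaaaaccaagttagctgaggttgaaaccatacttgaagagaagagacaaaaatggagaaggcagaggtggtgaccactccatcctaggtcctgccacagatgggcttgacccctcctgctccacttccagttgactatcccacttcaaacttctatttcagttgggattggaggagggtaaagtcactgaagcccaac
4930444F02Rik, chr10:18831931-18832180, minus strand: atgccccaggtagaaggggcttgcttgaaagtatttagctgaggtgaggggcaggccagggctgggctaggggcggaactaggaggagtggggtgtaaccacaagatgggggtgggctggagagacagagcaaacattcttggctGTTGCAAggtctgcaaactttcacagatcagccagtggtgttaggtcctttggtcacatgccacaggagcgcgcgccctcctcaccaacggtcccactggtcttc
Interval between 4930452B06Rik and 4930455B14Rik, chr14:8666241-8666385, plus strand: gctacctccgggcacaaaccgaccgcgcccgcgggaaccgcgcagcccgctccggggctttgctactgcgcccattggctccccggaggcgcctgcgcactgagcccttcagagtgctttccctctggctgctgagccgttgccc
The capitals in 4930444F02Rik begin 105 bases before its start, and none of the 3 motifs was found within the other stretches. The window of 4922502D21Rik held CCGTTA in a place that reaches past the printed bases. A window was present for 114 of the 173 genes. CCGTTA was found for 6.14% of these 114 genes and for 3.15% of all 27025 genes with a window, GTTGCNA for 14.9% and 11.9%, and TGACGTCA for 2.63% and 2.03%. Where a gene had more than 1 window, a match in any of them counted. Of the 24 genes with a window that are marked lower in Znhit1_KO in the authors' deposited table, 2 held CCGTTA, 3 held GTTGCNA and 1 held TGACGTCA. These are matches of letters, and no binding was measured.

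The libraries summed to between 129531714 and 157790457 estimated counts. Znhit1 itself had 17.3 and 31.9 CPM (counts scaled to library size with TMM factors) in the CTRL libraries and 3.15 and 2.14 in the Znhit1_KO libraries. Its log2 change was -3.22 ± 0.40 (SE), with an adjusted p of 0.264 in edgeR's quasi-likelihood test. CTRL replicate 2 stood apart from the other 3 libraries in genes of pachytene spermatocytes: 11 such markers summed to 1469 and 2953 CPM in CTRL, and to 753 and 1117 CPM in Znhit1_KO. Of those 11 markers, 10 were lower in both Znhit1_KO libraries, and Spag6 was higher. Their median log2 change was -1.88. The 8 spermatogonial markers were level as a sum, from 868 to 886 CPM, with a median log2 change of 0.00. Single markers were not all level, and log2 changes were negative for 4 and positive for 4. Stra8 had 112.7 and 122.5 CPM in CTRL and 71.8 and 75.5 in Znhit1_KO (log2 change -0.67 ± 0.14). Dmrt1 was higher in both Znhit1_KO libraries (log2 change 0.31 ± 0.14). All 7 early meiotic markers had negative log2 changes, with a median of -0.30. Of 15 Sertoli cell markers, 12 were higher in both Znhit1_KO libraries (summed CPM of 6400 and 6751 against 8886 and 7659, median log2 change of 0.39). Median log2 changes were 0.39 for 8 Leydig cell markers, 0.69 for 9 macrophage markers, 0.36 for 5 endothelial markers and 0.00 for 5 peritubular myoid markers. The 5 red cell genes had summed CPM of 14.7, 96.8, 18.5 and 216.1, in the order CTRL replicates 1 and 2, then Znhit1_KO replicates 1 and 2. Of the round spermatid markers, the protamine genes Prm1 and Prm2 were at or near 0 in every library, and Acrbp was highest at 43.2 CPM in CTRL replicate 2. In whole testis RNA, fewer cells of a type and less RNA per cell cannot be told apart, and the part of cell composition in the differences below was not tested.

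**Figure D1:**
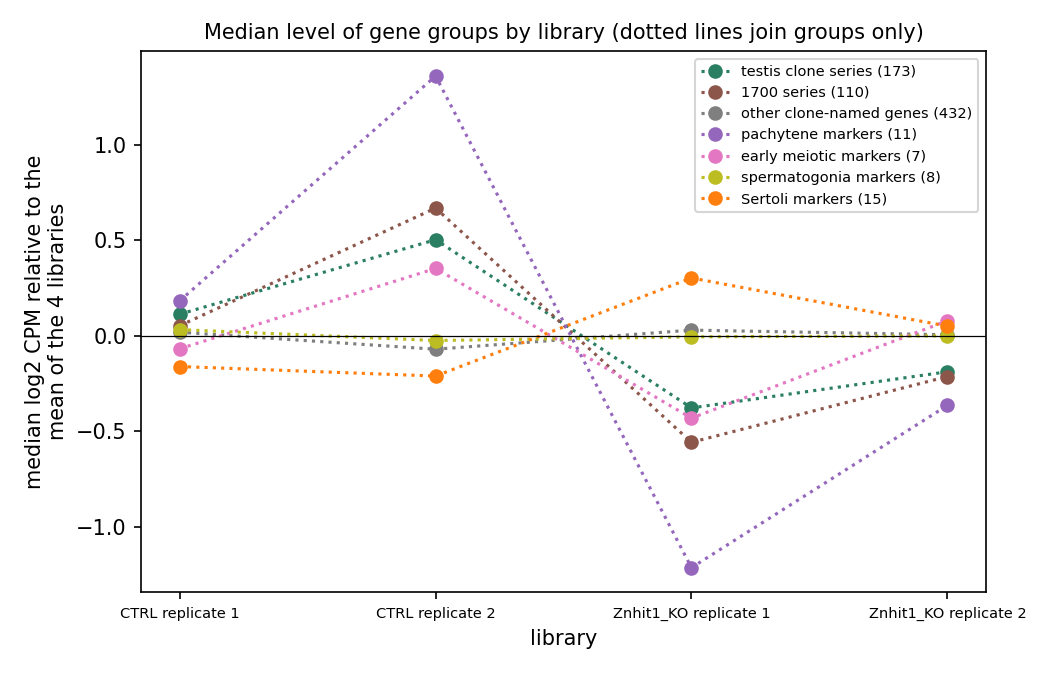
Median log2 CPM of gene groups in each of the 4 libraries, relative to each gene's mean over the libraries. The x axis gives the library and the dotted lines only join points of one group. The 173 clone-named genes lie at 0.11 and 0.50 in CTRL and at -0.38 and -0.19 in Znhit1_KO, the pachytene markers follow the same order over a wider range, and the spermatogonial markers stay near 0.

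The clone-named genes were mostly lower in Znhit1_KO. Log2 changes were negative for 131 and positive for 42, against 46.9% negative over the 24116 genes tested. The median was -0.66 (quartiles -1.52 and -0.01), against 0.03 over all genes tested. The groups did not overlap, with Znhit1_KO the lower, for 90 genes (background over all genes tested 21.3%) and, with Znhit1_KO the higher, for 21 (background 21.8%). A log2 change of -1 or lower was found for 69 (background 8.88%) and one of 1 or higher for 1 (background 4.79%). Among the 16621 genes tested that had the same minimum mean count, 991 were at -1 or lower and 209 at 1 or higher. In the other 62 genes the groups overlapped.

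edgeR's quasi-likelihood test called none of the 173 at an adjusted p under 0.05 (background 0%). At an unadjusted p under 0.05 it had 56 lower (background 7.75%) and 1 higher (background 2.99%), and the lowest Benjamini-Hochberg adjusted p of any gene was 0.264. The authors' deposited table marks 34 of the genes lower (background 3.22%) and 0 higher (background 0.277%); all 34 were lower in both Znhit1_KO libraries. DESeq2, rerun on the deposited counts, called the same 34 genes (background 3.61% for lower calls). DESeq2 is also the tool named by the submitters, so the match is no separate support. All 34 had a log2 change of -1 or lower. Their median, -2.27, follows in part from their having been marked.

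**Figure D2:**
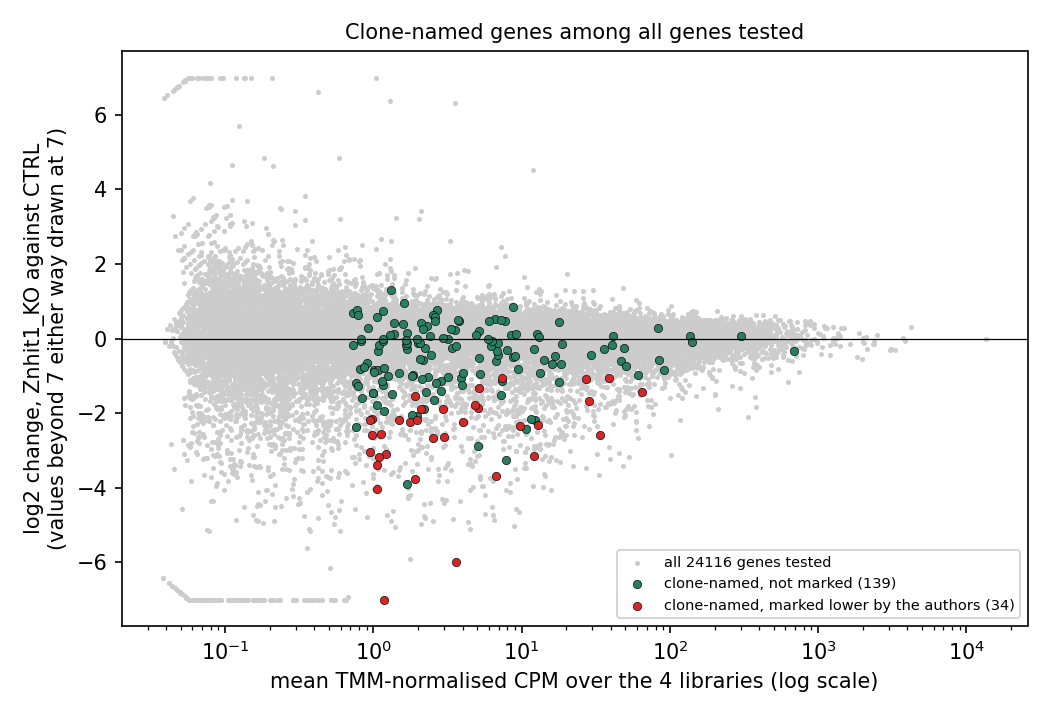
Log2 change of Znhit1_KO against CTRL (y axis) against mean TMM-normalised CPM over the 4 libraries (x axis, log scale) for all 24116 genes tested, with the 173 clone-named genes in colour. The 34 genes marked lower in the authors' deposited table lie between -1.05 and the lower edge, where values beyond 7 are drawn at 7.

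Replicates were not alike. CTRL replicate 2 was the highest library for 114 of the 173 genes and for 33 of the 34 marked ones. Znhit1_KO replicate 1 was the lowest for 93 and for 26. The 173 genes summed to 2714 and 3543 CPM in CTRL and to 2230 and 2382 in Znhit1_KO. Over the 34 marked genes the sums were 294.8 and 617.7 against 113.3 and 155.3. Without CTRL replicate 2 the median log2 change of the 173 genes was -0.38 and that of the 34 was -1.75. Each of the 34 kept its sign without any 1 library, which follows from the lack of overlap between the groups and is no separate support. Of the 34, 28 stayed at -1 or lower without CTRL replicate 2. DESeq2 called 10 of the 173 genes without that library (background 1.19%).

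The minimum on the mean count let in some genes through 1 group only. The mean count was under 100 in Znhit1_KO for 26 genes, 14 of them among the 34 marked, and under 100 in CTRL for 4. Of the 143 genes at 100 or more in both groups, 67 were lower and 19 higher without overlap, 20 were marked lower in the authors' deposited table, and the median log2 change was -0.43. As shares of the 143, 46.85% were lower and 13.29% higher without overlap, and 13.99% were marked lower. Over all genes tested with a mean count of at least 100 over the 4 libraries, the shares were 22.03% lower, 23.5% higher and 4.14% marked lower. That background was not held to 100 in each group and still includes genes let in through 1 group. The 2 sets of shares are therefore not filtered alike.

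Protein-coding genes made up 12 of the 34 marked genes. Of these 12, 4921524L21Rik, 4933402N22Rik and 4932415D10Rik had a mean count under 100 in Znhit1_KO and reached the minimum through CTRL. Of all 61, 37 were lower and 7 higher without overlap, with a median log2 change of -0.66, where the 14319 protein-coding genes of the same minimum count had 0.03, with 22.1% lower and 24.6% higher without overlap and 3.90% marked lower. The lowest p among the 173 was that of 4933415F23Rik on chromosome 1, a gene of 1 exon coding for 153 residues that RefSeq now calls Ppp1r14bl, after its likeness to an inhibitory subunit of protein phosphatase 1. It had 14.1 and 29.2 CPM in CTRL and 2.28 and 2.58 in Znhit1_KO. The Znhit1_KO libraries lay close together and both CTRL libraries well above them. The log2 change was -3.15 ± 0.41, with an unadjusted p of 0.000446 and an adjusted p of 0.264 in edgeR's quasi-likelihood test; its upstream stretch is the first of those shown above.

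A similar pattern at a lower level was seen for 4921524L21Rik on chromosome 18, which codes for 438 residues. It had 3.54 and 10.6 CPM in CTRL and 0.0506 and 0.173 in Znhit1_KO, a log2 change of -5.99 ± 0.88. Both Znhit1_KO libraries were below 0.2 CPM, and the CTRL libraries differed from each other about 3-fold. The gene of 193 residues 4930544G11Rik on chromosome 6, a single exon, had 5.31 and 19.5 CPM in CTRL against 0.418 and 1.498 (log2 change -3.70 ± 0.89). For 4933402N22Rik on chromosome 5 (189 residues), the values were 1.58 and 2.43 against 0.0380 and 0.209 (log2 change -4.03 ± 0.85).

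Higher in level (mean TPM 54.9) was 4922502D21Rik on chromosome 6, now Clec2m, a member of the C-type lectin domain family 2 and the only gene of its clone series. It stood at 33.5 and 82.6 CPM in CTRL, and at 8.03 and 11.2 in Znhit1_KO. The lower CTRL library was still about 3 times the higher Znhit1_KO library, and the log2 change was -2.59 ± 0.47. The gene with the longest product of the marked ones, 4932415D10Rik on chromosome 10 (4986 residues), had 2.13 and 3.73 CPM against 0.690 and 0.555 (log2 change -2.23 ± 0.43).

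Smaller and tighter differences were found for 4930503L19Rik on chromosome 18 (526 residues, synonym Las2). It had 33.6 and 40.7 CPM in CTRL and 17.6 and 17.3 in Znhit1_KO, so that replicates of each group lay within a narrow range; the log2 change was -1.09 ± 0.19. The ecto-5′-nucleotidase-like gene 4933425L06Rik (Nt5el) was alike in this, at 9.92 and 9.82 against 4.86 and 4.66 CPM (log2 change -1.05 ± 0.22). In neither were the CTRL libraries far apart.

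The meiotic genes of known role differed less. The synaptonemal complex gene 4930447C04Rik had 100.5 and 102.3 CPM in CTRL and 65.6 and 70.5 in Znhit1_KO, a log2 change of -0.58 ± 0.14 with an unadjusted p of 0.00866 and an adjusted p of 0.315 in edgeR's quasi-likelihood test. Neither group's replicates were far apart, and the gene is not marked in the authors' deposited table. For the recombination gene 4930432K21Rik the values were 31.2 and 36.5 against 24.8 and 25.3 CPM (log2 change -0.43 ± 0.18), again without overlap. The centriolar satellite gene 4933427D14Rik had 25.8 and 23.4 CPM in CTRL and 15.5 and 6.32 in Znhit1_KO (log2 change -1.17 ± 0.44), with the spread on the Znhit1_KO side.

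Of the 58 genes of highest mean count, 17 (29.3%) had a log2 change of -1 or lower. The share was 5.96% over all genes tested with a mean count of at least 100. Some genes with high counts differed little. The lipid transfer gene 4932438A13Rik, with 86 exons and 5005 residues, had 756 and 770 CPM in CTRL and 608.5 and 606 in Znhit1_KO (log2 change -0.33 ± 0.14), without overlap. 4931406P16Rik, now Garre1, had 290.1 and 300.2 against 315.7 and 300.3 CPM (log2 change 0.06 ± 0.14), and 4930402H24Rik had 159.7 and 131.0 against 165.9 and 108.8 (log2 change -0.08 ± 0.24). These last 2 differed by less than their spread. By the authors' TPM, which allows genes to be ranked, the 5 highest means were 174 for 4933402E13Rik, 134 for 4931406P16Rik, 133 for 4932438A13Rik, 130 for 4930550L24Rik and 115 for 4930447C04Rik. In single libraries these 5 ranged from 93.6 TPM (4930447C04Rik, Znhit1_KO replicate 1) to 184 (4933402E13Rik, Znhit1_KO replicate 2). 4933402E13Rik was above the other 4 in every library, and the order of the other 4 changed between libraries. 4930447C04Rik was above 4931406P16Rik and 4930550L24Rik in both CTRL libraries (146 and 125 TPM) and last of the 5 in both Znhit1_KO libraries (93.6 and 94.7 TPM).

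**Figure D3:**
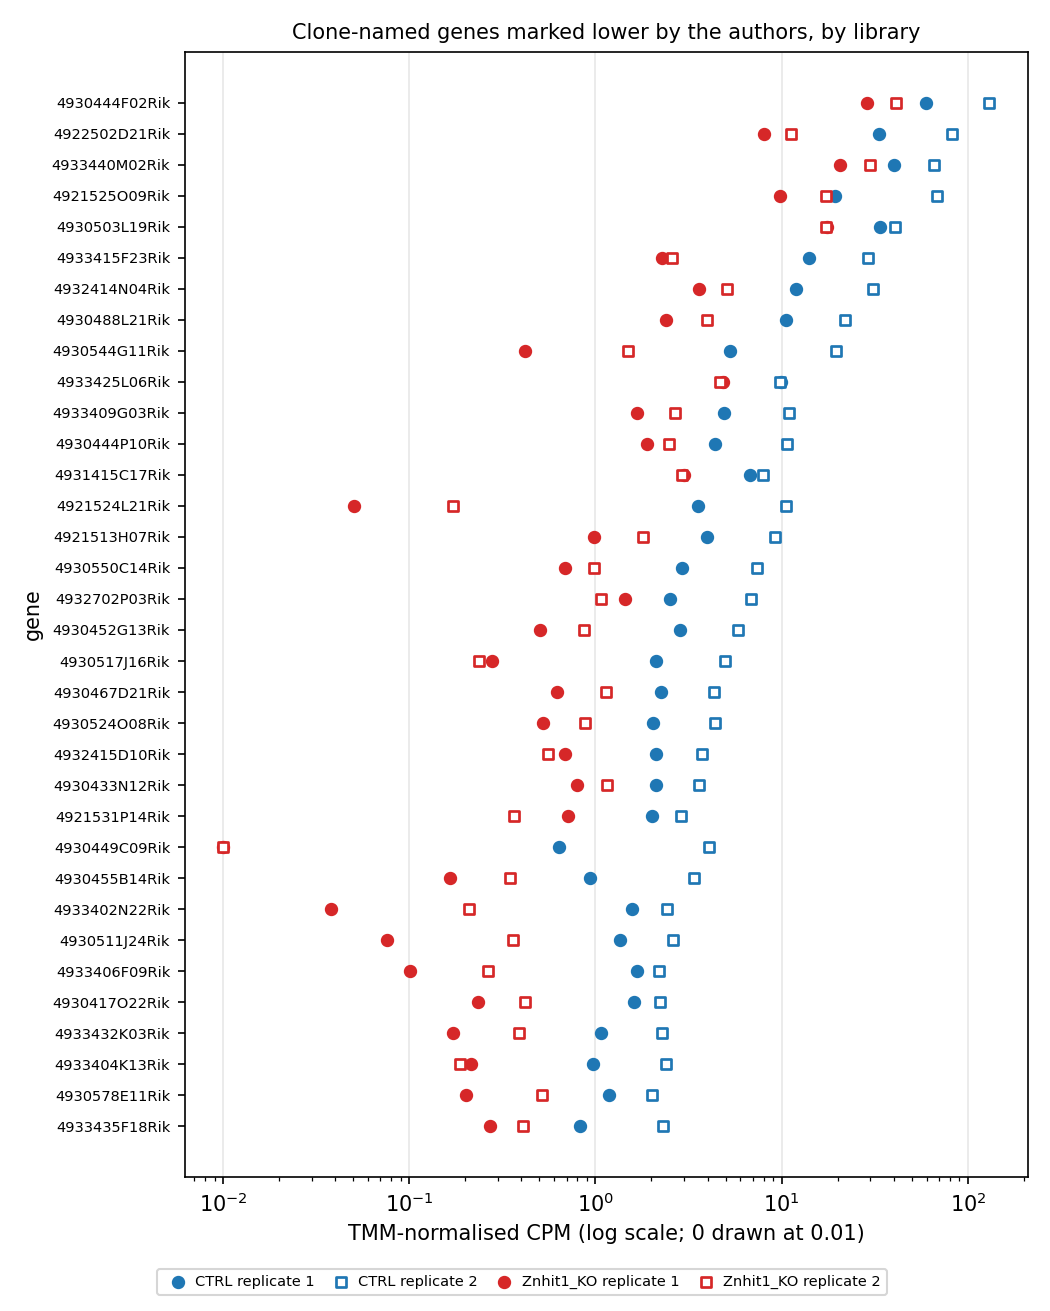
TMM-normalised CPM (x axis, log scale, 0 drawn at 0.01) of the 34 clone-named genes marked lower in the authors' deposited table, in each CTRL (blue) and Znhit1_KO (red) library, ordered by mean CTRL level. Both red symbols lie left of both blue symbols in all 34, and the CTRL replicate 2 symbol is the rightmost in 33.

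The lncRNAs contributed 20 of the 34 marked genes. Several of these had a mean count under 100 in Znhit1_KO and reached the minimum through CTRL. Of those described below, they are 4930449C09Rik, 4933406F09Rik, 4930511J24Rik, 4933404K13Rik, 4930455B14Rik and 4930417O22Rik. The numbers for this class therefore rest in part on genes let in by their CTRL level. Of all 88 lncRNAs, 44 were lower and 7 higher without overlap. Their median log2 change was -0.76, beside 0.05 for the 1079 lncRNAs of the same minimum count. Of those 1079, 25.02% were lower and 17.6% higher without overlap, and 8.53% were marked lower. One well-expressed marked gene (mean TPM 23.1) was 4930444F02Rik on chromosome 10, with 60.0 and 130.3 CPM in CTRL and 28.6 and 41.3 in Znhit1_KO (log2 change -1.45 ± 0.41). The CTRL libraries differed by more than 2-fold, and neither Znhit1_KO library reached the lower of them. Its upstream stretch is the one with the GTTGCAA match.

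For 4930449C09Rik on chromosome 15 no count was recorded in either Znhit1_KO library, against 0.637 and 4.07 CPM in CTRL. With a floor of 3 counts per library, the mean of the 2 CTRL libraries was at least 116-fold higher. That ratio does not hold for CTRL replicate 1 alone, which was much lower, at 0.637 CPM. The fitted log2 change, -11.36, is set by the prior count and is no bound. The CTRL value rested largely on replicate 2.

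4933406F09Rik on chromosome 14 had 1.67 and 2.204 CPM in CTRL and 0.101 and 0.267 in Znhit1_KO (log2 change -3.40 ± 0.60). The replicates of CTRL were close together here, and the higher Znhit1_KO library was well under the lower CTRL library. Its neighbour Gm10339, which starts 85 bases away on the other strand, had 0.311 and 1.29 against 0.0317 and 0.151 CPM (log2 change -3.13 ± 1.06).

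Other lncRNAs of low level had differences of like size. For 4930511J24Rik the values were 1.35 and 2.61 CPM in CTRL and 0.0760 and 0.360 in Znhit1_KO (log2 change -3.19 ± 0.83). 4933404K13Rik had 0.970 and 2.39 against 0.215 and 0.187 (log2 change -3.06 ± 0.59), and 4930455B14Rik 0.933 and 3.40 against 0.165 and 0.346 (log2 change -3.08 ± 0.79). In all 3 the Znhit1_KO libraries were below 0.4 CPM. 4930452G13Rik had 2.85 and 5.86 against 0.506 and 0.872 CPM (log2 change -2.66 ± 0.52), and 4930417O22Rik 1.61 and 2.23 against 0.234 and 0.418 (log2 change -2.56 ± 0.48).

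Replicates lay close together for 4931415C17Rik on chromosome 8, at 6.78 and 7.94 CPM in CTRL and 2.99 and 2.90 in Znhit1_KO (log2 change -1.32 ± 0.25). The most abundant lncRNA of all, 4933404O12Rik on chromosome 5, was not separated: 75.9 and 159.5 CPM in CTRL overlapped with 47.5 and 83.1 in Znhit1_KO (log2 change -0.85 ± 0.43).

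Of the 15 TEC genes, 7 were lower and 4 higher without overlap (median log2 change -0.21, beside 0.18 for 270 TEC genes of the same minimum count). Among the 270, 12.6% were lower and 14.4% higher, so both shares of the 15 (46.7% and 26.7%) were above them. The second lowest p of the 173 genes was that of 4930517J16Rik on chromosome 4, a TEC gene of 1 exon. It had 2.13 and 4.95 CPM in CTRL, against 0.279 and 0.238 in Znhit1_KO (log2 change -3.77 ± 0.55). The Znhit1_KO replicates agreed closely, at counts of 44 and 33, so the gene reached the minimum count through CTRL. Of the 9 pseudogenes, 2 were lower and 3 higher without overlap, 0 were marked, and the median log2 change was -0.26. For 912 pseudogenes of the same minimum count the shares were 20.3% lower, 15.9% higher and 2.85% marked lower, so the share lower was near the background. Reads of a pseudogene can be shared with its parent gene, so these values are uncertain. The 1 gene with a log2 change above 1, the pseudogene 4932415M13Rik, had 0.19996 and 1.32 CPM in CTRL and 1.06 and 2.68 in Znhit1_KO, which overlap.

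**Figure D4:**
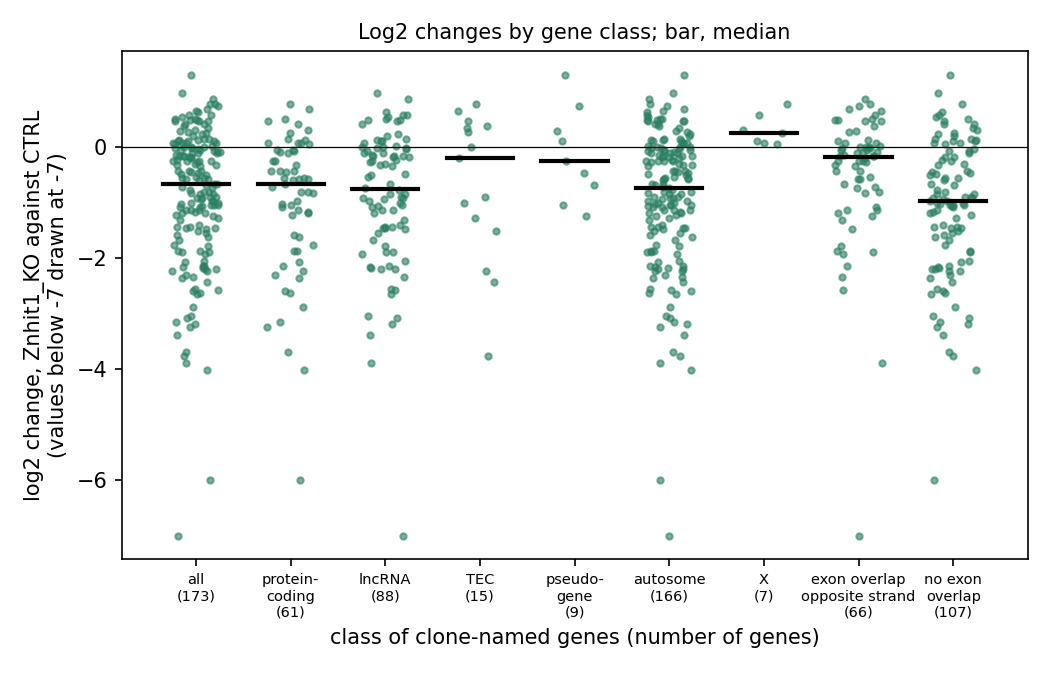
Log2 change of each clone-named gene by annotation class, chromosome and overlap with exons of a gene on the other strand; each point is a gene, the bar is the median and values under -7 are drawn at -7. Medians lie at -0.76 for lncRNAs, -0.66 for protein-coding genes, 0.25 for the 7 X-linked genes and -0.98 for genes without an opposite-strand overlap.

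None of the 21 genes that were higher in both Znhit1_KO libraries was marked in the authors' deposited table. Their median log2 change was 0.48, and they ranged from 0.06 to 0.96. The 21 include genes that were near level, such as 4931406P16Rik (log2 change 0.06) and 4931406C07Rik (0.07). The lowest p was that of the lncRNA 4933439C10Rik on chromosome 11, with 6.58 and 5.87 CPM in CTRL and 8.65 and 13.8 in Znhit1_KO. The Znhit1_KO replicates differed from each other by more than the groups' nearest libraries did. The log2 change was 0.85 ± 0.30, with an unadjusted p of 0.0345 and an adjusted p of 0.424 in edgeR's quasi-likelihood test.

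Closer replicates were seen for 4930486L24Rik on chromosome 13, a protein-coding gene of 333 residues, at 12.97 and 16.96 against 20.46 and 20.55 CPM (log2 change 0.45 ± 0.22). The lncRNA 4930599N23Rik had 6.15 and 6.80 against 8.46 and 9.56 CPM (log2 change 0.48 ± 0.23). 4921507P07Rik (588 residues) had 6.63 and 5.38 against 9.45 and 7.40 (log2 change 0.49 ± 0.26), and 4933421O10Rik 5.20 and 5.63 against 6.43 and 9.28 (log2 change 0.54 ± 0.28). Except in 4930599N23Rik, the gap between the groups was narrower than the spread within at least 1 of them. The TEC gene 4930577N17Rik had 2.23 and 1.75 against 2.73 and 3.45 CPM (log2 change 0.63 ± 0.32), and the pseudogene 4930431P19Rik 0.911 and 0.833 against 1.22 and 1.69 (log2 change 0.74 ± 0.38). With libraries scaled to equal Sertoli marker counts, which lowers every gene together and moved the median of all genes tested to -0.29, 0 of the 173 genes were higher without overlap (background 5.83%).

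**Figure D5:**
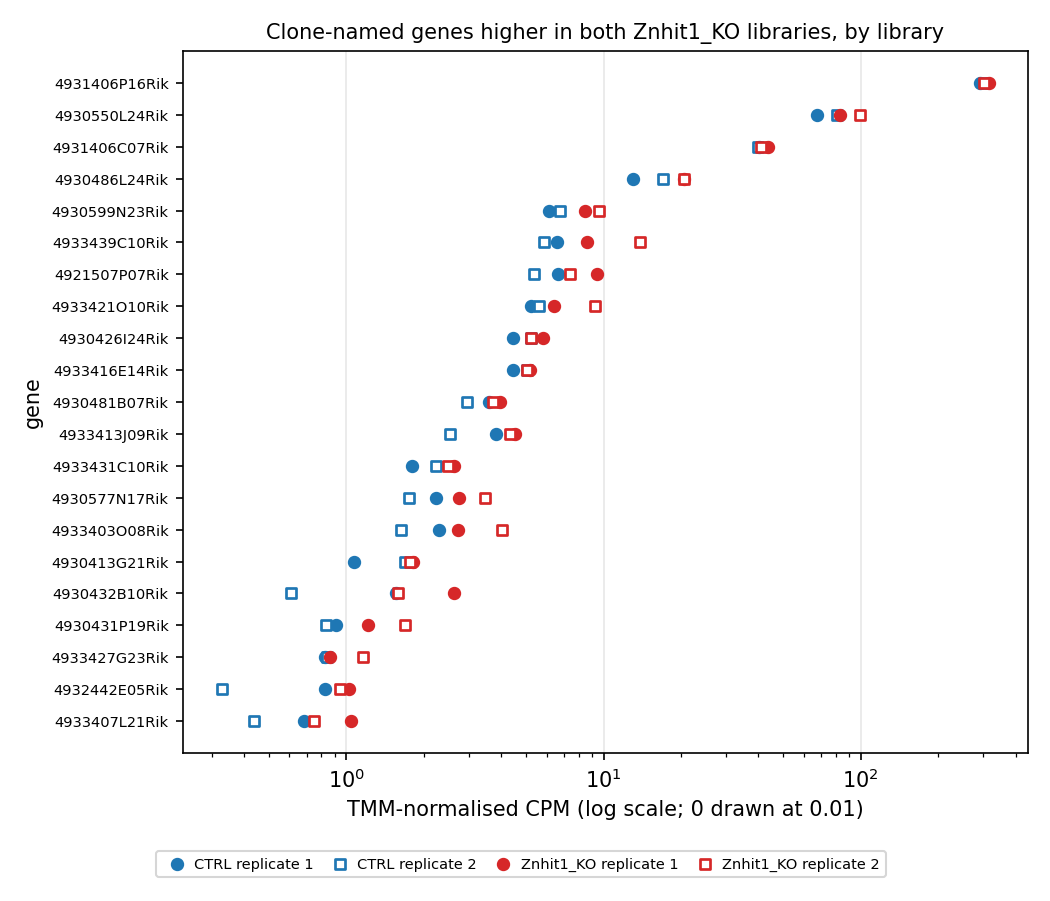
TMM-normalised CPM (x axis, log scale) of the 21 clone-named genes whose Znhit1_KO libraries (red) both lay above both CTRL libraries (blue), ordered by mean CTRL level. The gaps between groups are small beside those of the marked genes, and the largest log2 change is 0.96.

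The 7 X-linked genes stood on the other side from most. All 7 had positive log2 changes (median 0.25), 3 of them without overlap, and none was lower without overlap. Of 691 X-linked genes of the same minimum count, 533 were positive, with a median of 0.22, 38.8% higher and 12.01% lower without overlap, so the clone-named X genes lay near the other genes of their chromosome. The 166 autosomal genes had a median of -0.74, with 90 (54.2%) lower and 18 (10.8%) higher without overlap. The X-linked 4933403O08Rik had 2.30 and 1.64 CPM in CTRL and 2.72 and 4.01 in Znhit1_KO (log2 change 0.77 ± 0.36). 4930550L24Rik, whose synonym mage-k1 places it in the MAGE family of cancer and testis antigens, had 67.8 and 81.2 against 82.9 and 99.5 CPM (log2 change 0.29 ± 0.18). The groups came close to touching in both. 4933402E13Rik, of highest mean TPM, had 123.6 and 143.7 against 137.4 and 143.9 CPM (log2 change 0.07 ± 0.15), and the non-coding 4933407K13Rik, which spans the Dxz4 macrosatellite, 2.51 and 1.67 against 3.98 and 2.23 (log2 change 0.57 ± 0.42). Ct55 (4930502E18Rik) had 12.4 and 13.1 against 14.8 and 11.7 CPM, and 4930595M18Rik 3.18 and 2.90 against 4.44 and 2.79. In these 4 the libraries of the groups overlapped.

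Genes with and without an overlapping neighbour had different medians, a difference that was not tested. The 66 genes whose exons overlap an exon of a gene on the other strand had a median log2 change of -0.19, and 26 were lower and 11 higher without overlap. The 107 without such an overlap had a median of -0.98, with 64 lower and 10 higher. In percent, 39.4% of the 66 and 59.8% of the 107 were lower, beside 21.3% of all genes tested, and 16.7% and 9.35% were higher, beside 21.8%. Strand use in counting was not among the labels or notes, so for the 66 the reads of the 2 strands cannot be told apart. For example, 4932702P03Rik (2.503 and 6.81 CPM in CTRL, 1.44 and 1.07 in Znhit1_KO) shares exon sequence with Aldh5a1, which was higher in both Znhit1_KO libraries (log2 change 0.49 ± 0.22), and 4930503L19Rik shares some with Stard6, which is also marked lower (log2 change -1.68 ± 0.55). Over 69 such pairs that could be tested, 44 had log2 changes of the same sign, 8 were lower and 3 higher in both members without overlap, and 9 went in opposite directions without overlap. Taken singly, the clone-named gene was lower without overlap in 24 of the 69 pairs and the other gene in 18. Whether the pairs were alike beyond these shares was not tested.

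Starts within 2 kb of a gene on the other strand and pointing away from it were found for 46 genes. Their median log2 change was -0.63, against -0.66 for the other 127. For 38 of these genes the neighbour was tested too. They include 4930455B14Rik and 4930452B06Rik, which are neighbours of each other and count from each side. Taken singly, 20 of the 38 genes and 16 of their neighbours were lower without overlap. Whether more pairs were lower together than these shares give was not tested. Of the 38, 25 had the same sign as their neighbour, 9 were lower without overlap together with it, and 1 pair went in opposite directions. That pair was 4930426I24Rik, at 4.45 and 5.21 CPM in CTRL and 5.79 and 5.24 in Znhit1_KO, and Hspa2, the testis heat shock protein gene of pachytene spermatocytes, at 699.7 and 1225 against 447 and 592.5. Their starts are 194 bases apart. Pairs lower in both could join genes of unequal difference. 4930455B14Rik (log2 change -3.08) and 4930452B06Rik, now Cfap20dc (14.2 and 19.4 against 10.77 and 11.96 CPM, log2 change -0.57 ± 0.24), start on either side of the 145-base interval printed above. 4930430F08Rik had a log2 change of -0.43 and its neighbour 1700017N19Rik one of -3.14 ± 0.92. In contrast, 4930433N12Rik and Gm31138 were alike, at -1.55 and -1.74. 4930467D21Rik (-1.90) starts 38 bases from Naa11, an N-terminal acetyltransferase gene (15.9 and 24.0 against 7.81 and 10.96 CPM, log2 change -1.09 ± 0.30).

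A few of the genes neighbour each other. On chromosome 2, 4933409G03Rik and 4932414N04Rik lie 40.0 kb apart on the same strand, code for 320 and 752 residues and are both marked lower in the authors' deposited table. The first had 4.93 and 10.95 CPM in CTRL and 1.67 and 2.68 in Znhit1_KO (log2 change -1.87 ± 0.49). The second had 11.9 and 30.9 against 3.60 and 5.06 (log2 change -2.31 ± 0.50). Both held the same order of libraries, with CTRL replicate 2 highest and Znhit1_KO replicate 1 lowest. On chromosome 5, 4930458A03Rik and 4930432H08Rik point toward each other across 326 bases and had log2 changes of -1.41 ± 0.59 and -1.44 ± 0.80.

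Size and composition of the transcripts showed no strong relation to the difference. Across the 173 genes, which share the same 4 libraries, Spearman's rho with the log2 change was 0.11 for transcript length, -0.10 for the number of exons, 0.15 for GC content and 0.10 for the mean count, given as descriptions. Median transcript length was 2166 bases for the 34 marked genes and 1905 for the other 139, the median number of exons 4 and 3, and median GC content 45.5% and 47.2%. By level, the median log2 change was -0.85 for the 58 genes of lowest mean count, -0.91 for the middle 57 and -0.48 for the 58 of highest mean count.

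Other clone-named genes served for comparison. Those of the series of 1700017N19Rik, which also come from adult testis libraries, had 110 genes of the same minimum count, with 60 lower and 10 higher without overlap, 29 marked lower and 1 higher in the authors' deposited table, and a median log2 change of -0.74. That is 54.5% lower and 9.09% higher without overlap and 26.4% marked lower, beside 21.3%, 21.8% and 3.22% over all genes. The remaining 432 clone-named genes, mainly from other tissues, had 79 lower and 92 higher without overlap, 16 marked lower and 2 higher, and a median of 0.09, which is 18.3% lower, 21.3% higher and 3.70% marked lower. The difference between these sets was not tested. Among the matched rows under the minimum, 217 were tested, with 96 (44.2%) lower and 20 (9.22%) higher without overlap and a median of -0.73. Such rows could pass the filter on low counts through 1 group alone. For example, 4930558F17Rik had counts of 31 and 78 in CTRL and 0 in both Znhit1_KO libraries. These shares therefore cannot show whether the direction extends below the minimum.

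The 3 genes just inside the minimum show what values at that level look like. 4931406B18Rik had 0.711 and 1.83 CPM in CTRL and 0.0696 and 0.425 in Znhit1_KO, 4933417D19Rik 0.763 and 0.779 against 0.601 and 0.771, and 4930429H19Rik 0.807 and 1.31 against 0.469 and 0.454. The first and last did not overlap between groups, and none of the 3 is marked in the authors' deposited table.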

How the data were processed

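Mouse testis poly(A) RNA was sequenced, with 2 libraries in each of 2 groups. Tools named in the submitters' processing notes were StringTie 2.2.1, HISAT2 2.2.1, DESeq2 1.38.3 and cutadapt 2.5, on build mm10, with settings, annotation and strandedness not given in the sources used here. Deposited gene values were whole numbers summing to more than the reads stated; they were treated as estimated counts that the authors derived from coverage, which overstates counting precision. A second deposited table, the authors' comparison, gives TPM for each library, a mean normalised signal, log2 fold changes with standard errors, Wald scores, p-values and a mark for genes lower or higher; TPM and marks were used as deposited.

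The members, gene lists and tests were chosen with earlier results of these data known. Counts were tested with edgeR 4.0.16 in R 4.3.3 (quasi-likelihood F test, TMM factors, filterByExpr by group, Benjamini-Hochberg adjustment over the 24116 genes tested, threshold 0.05), checked on simulated data. All 173 members passed the filter. Standard errors come from the F statistic. CPM values use the TMM factors. Without overlap means that both libraries of one group lie beyond both of the other. DESeq2 1.42.0 and limma 3.58.1 (voom), other scalings, no filter, other minimum counts, a replicate block and each library left out were alternatives. Positions, classes and neighbours came from GENCODE M21 (55154 of 55335 identifiers found); current symbols and upstream sequences came from RefSeq (GRCm38.p6). Floors of 3 counts cover counting error only.

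Named genes were Znhit1 and, of the members, the 12 with the lowest p among those lower and the 8 among those higher without overlap, the 8 highest by CPM and 5 by TPM, the 10 lowest log2 changes among those marked, the 3 on each side of the minimum count, those of known role and up to 4 abundant ones with log2 changes under 0.1; further genes named as examples of neighbours, X-linked genes or classes were chosen after their values were seen. The edgeR p-values compare the difference between the groups with a spread estimated from 2 libraries per group and shared in part across genes.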

Additional observations from a re-analysis of the deposited data

How the results depend on the processing

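With 2 libraries per group, calls depended on the test. edgeR's quasi-likelihood test called 0 of all genes and 0 of the clone-named genes, also with RLE or total count scaling, Sertoli scaling, no filter and limma-voom. DESeq2 called 1024 and 34, and edgeR with a replicate block 2737 and 71. The labels state no pairing by number. Deviations of same-numbered libraries from their group means correlated at 0.42 across genes. With 2 libraries per group the deviations mirror each other, so this is 1 contrast. The cause of the block's calls was not tested. Leaving out 1 library gave 0 to 626 calls over all genes and 0 to 24 among the clone-named genes, the higher values without CTRL replicate 1. DESeq2 called 10 to 48 clone-named genes when each library was left out (chosen after seeing the data), 10 without CTRL replicate 2 and 21 without Znhit1_KO replicate 1. The count lower without overlap was 90, ranged from 97 to 122 with 1 library left out, and was 158 of 323 genes at a minimum mean count of 20 and 39 of 76 at 500. The count higher without overlap was 21, ranged from 27 to 38 with 1 library left out, and was 33 at a minimum of 20, 12 at 500 and 0 with Sertoli scaling. Leaving out a library loosens the criterion of no overlap, so both rises follow from it and do not show robustness. The median log2 change was -0.66, ranged from -0.83 to -0.38 with 1 library left out and was -0.96 with Sertoli scaling. Among 440 comparisons of 40 named genes, 8 reversed sign, in 6 genes. With Sertoli scaling these were 4931406P16Rik (-0.27), 4933402E13Rik (-0.25), 4930550L24Rik (-0.019) and 4931406C07Rik (-0.25). With 1 library left out, 4930402H24Rik ranged from -0.39 to 0.18, 4933402E13Rik from -0.032 to 0.19 and 4933417D19Rik from -0.37 to 0.028.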

Other observations

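4931406C07Rik, a protein-coding gene of 315 residues on chromosome 9 with 1 exon, differed little between the groups. It had 40.3 and 39.9 CPM in CTRL and 43.4 and 40.9 in Znhit1_KO (log2 change 0.07 ± 0.15), which puts it among the genes higher without overlap.

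9 clone-named genes with a log2 change under -2 are not marked in the authors' deposited table, and their replicates lay far apart. 4933414I15Rik on chromosome 11 had 8.09 and 20.5 CPM in CTRL and 0.449 and 2.56 in Znhit1_KO (log2 change -3.25 ± 0.92). 4930430A15Rik, now A26c3, had 9.61 and 27.9 against 1.96 and 6.52 (log2 change -2.15 ± 0.75). The lncRNA 4933435G04Rik had 8.52 and 31.6 against 2.66 and 6.24 (log2 change -2.17 ± 0.73). In all 3 the CTRL replicates differed by more than 2-fold, and both Znhit1_KO libraries were below them. These genes were chosen after their values were seen.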
